A study of Mus musculus with 4 samples.

Results

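The comparison described here sets RNA from the ischemic core of the mouse brain against RNA from healthy core tissue, 6 h after a stroke was induced. It rests on the 2 arrays titled as core arrays, of 4 arrays in the study; the other 2 compared ischemic with healthy penumbra, the tissue around the core. The animals were male C57BL/6J mice of 9 weeks. Their middle cerebral artery was closed permanently with an intraluminal filament (PMCAO), and 1 µl of saline was injected into the cerebral ventricle directly afterwards. Every channel of every array comes from this saline setting, so no drug-treated group enters. Each array carried ischemic RNA in one dye and healthy RNA in the other: core replicate 1 had the ischemic RNA in Cy5, and core replicate 2 had it in Cy3. The labels speak of 3 mice for a group, chosen by neurological grade, and leave unsaid whether RNA was pooled and which hemisphere or animal supplied the healthy tissue. Nothing in them says that the arrays of a pair hold different RNA extracts. The dye-swapped pair was therefore counted as 1 replicate, and the comparison has no replicate check and no p-value.

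In the ischemic core blood flow falls furthest: the energy supply fails, neurons depolarise and release glutamate, and cells die within hours. Depolarisation and calcium entry switch on immediate early genes, which need no new protein for their transcription, while unfolded protein releases heat shock factor onto heat shock genes. Injured and dying cells also activate microglia, vessel cells and incoming leukocytes, which make chemokines and cytokines that draw neutrophils and monocytes into the tissue.

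All values are log2 ratios of ischemic over healthy core, given for replicate 1, for replicate 2 and as their mean ± SD between the 2 arrays; this SD includes dye bias, which cancels in the mean. A feature (a gene, or an accession without a symbol) was called higher or lower when the mean ratio was at least 2-fold and the ratio on each array at least 1.5-fold in the same direction. Normalization centres the ratios on the bulk of the features. A scaling to the spike-in control transcripts, of which only 5 were measured on both core arrays, lowered every core ratio by 0.47 log2, so list medians smaller than that fall below 0 under it. Spots well above background made up 76.1% to 77.0% of the Cy3 spots and 76.8% to 78.3% of the Cy5 spots of the 2 core arrays, and 0 spots were saturated. Repeat spots of 245 probes, each printed 10 times, had a median SD of 0.064 log2 on either array. Because the tissue was measured in bulk, fewer cells of a type and less RNA per cell cannot be told apart.

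Of 24538 features measured in the core, 76 were called higher in ischemic tissue (0.31%) and 0 lower (0.0%). Over all 33261 features on the array, without the filter on dim probes, the share called higher was 0.228%. At that share 0 called members does not set apart any list of the sizes used below. The median of all features was -0.01 with a median SD of 0.10, and the first and the last percentile lay at -0.32 and 0.64. Spike-in scaling changed the split to 31 higher and 29 lower, and without core replicate 1 the counts were 83 and 12. Of the 76, 67 have a gene symbol, which is 0.488% of the 13743 measured features with one. Only 7 reached 8-fold and 14 reached 4-fold, while 49 lay below 3-fold. Both tissues were well above background on both arrays for all 76, and 70 had an SD under 0.25 log2. With the weaker rule of 1.5-fold on each array, 212 features were higher (0.864%) and 13 lower (0.053%). Features above 0 on both arrays made up 26.9% and features below 0 on both 28.1%, so the excess of higher features lies in the large ratios. Of 207 very bright features, those of log2 intensity of 16 or more, 197 had opposite signs on the 2 arrays and 10 the same sign. Their median SD was 0.58 against 0.08 to 0.13 for dimmer features, and 0 were called.

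**Figure D1:**
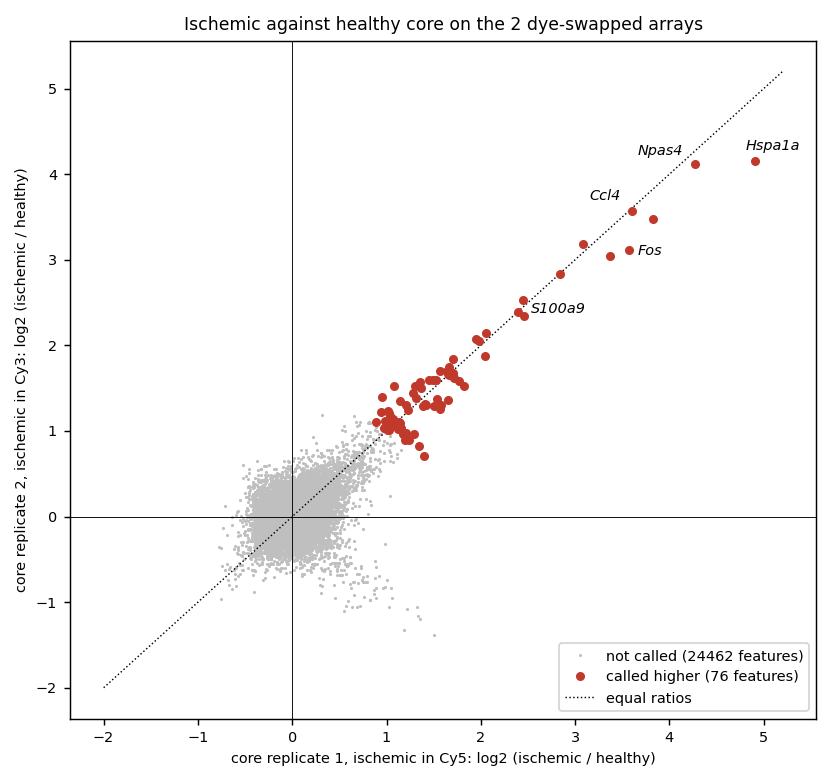
Log2 ratio of ischemic over healthy core on replicate 1 (x axis) and on replicate 2 (y axis) for the 24538 measured features. The 76 called features (red) lie along the line of equal ratios, up to Hspa1a at 4.91 and 4.16, and none lies on the lower side.

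At the threshold the values form a continuum. Just inside were Fzd10, a Wnt receptor, at 1.00, Btg2, an anti-proliferative cofactor, at 1.00 and Dennd2c, of a family of Rab activators, at 1.01. Just outside were Phlda1 at 0.99, the chemokine Ccl6 at 0.99 and the AP-1 subunit Fosl2 at 0.97.

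**Figure D2:**
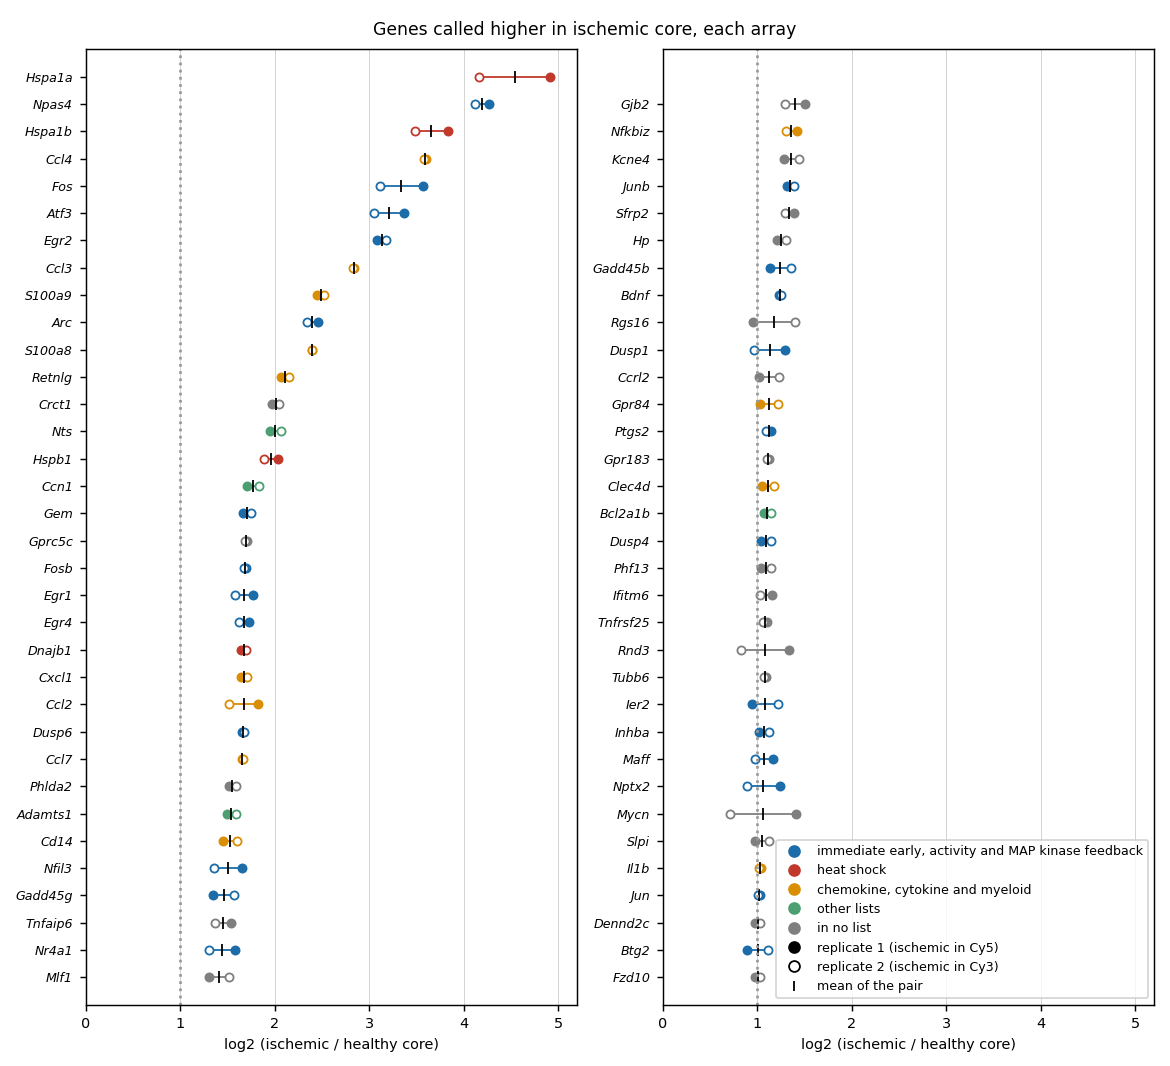
The 67 called genes with a symbol, ordered by mean log2 ratio (x axis), with replicate 1 filled, replicate 2 open and the mean as a tick; colours give the gene group. Immediate early, activity and MAP kinase feedback genes make up 25 of them, chemokine, cytokine and myeloid genes 13, heat shock genes 4, genes of other lists 4, and 21 are in no list.

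Promoter sequence is shown for 4 called genes with ratios near the top of the comparison, 1 each from the heat shock proteins, the AP-1 factors, the other early transcription factors and the chemokines. Each run is the 250 bases before the RefSeq start of the gene in GRCm38.p6, written 5′ to 3′ on the gene's strand. The windows are chr17:34959239-34959488 on the minus strand for Hspa1b, chr12:85473640-85473889 on the plus strand for Fos, chr19:4989972-4990221 on the minus strand for Npas4 and chr11:83649379-83649628 on the minus strand for Ccl3, which stands for the chemokines because Ccl4 has no entry. Capitals mark the match to GAANNTTC in Hspa1b, to TGACG in Fos and Npas4, and to TATAAA in Fos, on either strand; Ccl3 holds none of these.
Hspa1b: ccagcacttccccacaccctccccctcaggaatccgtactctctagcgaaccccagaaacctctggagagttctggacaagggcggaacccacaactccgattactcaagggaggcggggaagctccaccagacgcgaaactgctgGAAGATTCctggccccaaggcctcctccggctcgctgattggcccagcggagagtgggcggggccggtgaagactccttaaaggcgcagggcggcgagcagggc
Fos: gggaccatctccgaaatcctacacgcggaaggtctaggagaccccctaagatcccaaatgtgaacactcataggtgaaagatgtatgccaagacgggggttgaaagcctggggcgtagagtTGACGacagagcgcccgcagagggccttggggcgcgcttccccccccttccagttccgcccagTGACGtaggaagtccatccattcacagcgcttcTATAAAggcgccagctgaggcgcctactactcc
Npas4: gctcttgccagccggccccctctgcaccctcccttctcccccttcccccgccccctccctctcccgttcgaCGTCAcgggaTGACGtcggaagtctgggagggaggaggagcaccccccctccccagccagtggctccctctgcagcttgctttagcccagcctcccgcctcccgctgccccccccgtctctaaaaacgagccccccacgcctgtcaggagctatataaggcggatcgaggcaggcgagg
Ccl3: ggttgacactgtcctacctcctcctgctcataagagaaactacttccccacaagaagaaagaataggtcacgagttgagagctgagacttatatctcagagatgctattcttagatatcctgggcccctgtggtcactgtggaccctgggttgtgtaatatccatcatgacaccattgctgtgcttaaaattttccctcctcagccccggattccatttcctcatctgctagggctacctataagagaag

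The match of Hspa1b to GAANNTTC, a pair of the GAA units that make up heat shock elements, lies at -104 to -97 from the start. Fos holds TGACG, the core of the cAMP response element bound by CREB, at -129 to -125 and at -66 to -62, and TATAAA at -33 to -28. Npas4 holds it at -179 to -175 and at -169 to -165. Over the 52 called genes with a promoter window, 28 held TGACG (53.8%), against 19.8% of 27025 genes. The full palindrome TGACGTCA, which contains TGACG, was in 4 called genes (7.69%) against 1.77%; these 4 stretches of 30 bases are shown because the match is complete, with TGACGTCA in capitals.
Btg2: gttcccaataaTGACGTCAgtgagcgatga
Dusp1: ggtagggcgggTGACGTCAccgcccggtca
Maff: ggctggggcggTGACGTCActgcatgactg
Mlf1: cctcaccttagTGACGTCAtaaggtcatga

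They lie at chr1:134079303-134079332 on the minus strand for Btg2, chr17:26508597-26508626 on the minus strand for Dusp1, chr15:79347480-79347509 on the plus strand for Maff and chr3:67374032-67374061 on the plus strand for Mlf1, in GRCm38.p6. The Egr site GCGNGGGCG was in 9 called genes (17.3%) against 5.33% of all genes, and a 10-base kappaB consensus in 8 (15.4%) against 4.46%. The AP-1 site TGACTCA was in 2 (3.85%) against 5.16%, a 10-base CArG box consensus in 2 (3.85%) against 1.62%, and TATAAA in 12 (23.1%) against 14.3%. GAANNTTC was in 6 called genes (11.5%) against 7.73%, and 3 of these are heat shock genes: Hspa1a, Hspa1b and Hspb1. The longer heat shock element with a further GAA unit was in 0 of the 52 (0.0%) against 0.514%. Windows of called genes also had more GC, with a median of 59.2% against 52.4% and a median of 13 CpG pairs against 6; the part of base composition in the motif shares was not tested. A match is a description of the letters and no test was made.

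The largest ratio of the comparison belonged to a heat shock gene. Hspa1a, an inducible chaperone of the HSP70 family, had log2 ratios of 4.91 and 4.16, a mean of 4.54 ± 0.53 or 23.2-fold. Its log2 signal was 16.94 and 17.28 in ischemic core and 12.03 and 13.12 in healthy core, so ischemic core was higher on both arrays. Hspa1b, its near-identical neighbour, had 3.83 and 3.48, a mean of 3.66 ± 0.25. Probes cannot be assumed to tell these 2 genes apart, and their separate values are uncertain; both probes of each gene met the rule, at 4.36 and 4.54 for Hspa1a and at 3.17 and 3.66 for Hspa1b.

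Only part of the chaperone system moved this far. Hspb1, a small heat shock protein that holds unfolded proteins, had 2.04 and 1.88, a mean of 1.96 ± 0.11. Dnajb1, the HSP40 co-chaperone of HSP70, had 1.65 and 1.70, a mean of 1.67 ± 0.03. These 4 were the called members among 22 heat shock proteins and co-chaperones on the array, whose median was 0.35, or -0.12 with spike-in scaling; 18 were above 0 on both arrays, a side that 25.5% of all features on the array took. Bag3, a cofactor that releases HSP70 clients, missed the rule at 0.96 ± 0.20, and Hsph1, a nucleotide exchange factor, at 0.85 ± 0.30. Lower ratios were those of Hspa8, the constitutive HSP70, at 0.32 ± 0.32, Hsp90aa1, the inducible HSP90, at 0.29 ± 0.28, and Hsp90ab1, the constitutive HSP90, at 0.02 ± 0.13. Mitochondrial chaperones had 0.66 ± 0.11 for Hspe1 and 0.38 ± 0.02 for Hspd1.

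Immediate early transcription factors made up the next group. Npas4, a factor induced by calcium entry in neurons, had ratios of 4.27 and 4.12, a mean of 4.19 ± 0.10 or 18.3-fold. Its log2 signal was 11.90 and 12.10 in ischemic core and 7.63 and 7.98 in healthy core. Healthy core was thus far below ischemic core on both arrays, although dim enough that the ratio depends on the background treatment: the processed signals of the scanner software, made without the offset of 50, gave 4.71.

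Among the 11 AP-1 and ATF genes, which form dimers that bind TGACTCA-like sites, 6 were called, against 0.228% of all features on the array. The median over all 11 was 1.02. Fos had ratios of 3.57 and 3.11, a mean of 3.34 ± 0.32 or 10.1-fold, with log2 signals of 13.73 and 13.62 in ischemic and 10.16 and 10.51 in healthy core. Atf3, a stress-induced repressor, had 3.37 and 3.05, a mean of 3.21 ± 0.22. The other called members were Fosb at 1.69 ± 0.02, Junb at 1.35 ± 0.05, the small Maf protein Maff at 1.07 ± 0.14 and Jun at 1.02 ± 0.01. Of the 11, 9 were above 0 on both arrays and 0 below, where 25.5% of all features on the array were above. Not every member was called: Jund had 0.18 ± 0.36 with opposite signs on the 2 arrays, and Fosl2 narrowly missed the rule at 0.97. Fosl1 had 0.56 ± 0.03 but 1.18 with processed signals.

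The Egr zinc finger factors and Nr4a nuclear receptors split by member, with a median of 1.44. Called were 4 of 7, against 0.228% of all features on the array. Egr2 had ratios of 3.08 and 3.18, a mean of 3.13 ± 0.07 or 8.76-fold, with log2 signals of 11.25 and 11.25 in ischemic and 8.16 and 8.07 in healthy core. Egr1 had 1.77 and 1.58, a mean of 1.68 ± 0.14, Egr4 a mean of 1.67 ± 0.07 and Nr4a1 a mean of 1.44 ± 0.20. The 3 relatives did not pass: Egr3 had 0.13 ± 0.10 and Nr4a2 0.13 ± 0.49. Nr4a3 was well above background only in ischemic tissue, at log2 signals of 6.36 and 6.49, which bounds it at 1.28-fold or more on this scale, while processed signals gave 2.89 log2.

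The median of 19 other early transcription factors was 0.50, and 0.03 with spike-in scaling. Of the 19, 3 were called, against 0.228% of all features on the array. Besides Npas4 these were Nfil3, a bZIP repressor, at 1.65 and 1.36, and Ier2, for which the probes disagreed: the brighter had 1.08 ± 0.19 and the other -0.02. Krüppel-like factors stayed short of the rule, with Klf10 at 0.85 ± 0.09, Klf4 at 0.74 ± 0.04 and Klf6 at 0.50 ± 0.04. Myc had 0.51 ± 0.10, and the serum response factor gene Srf 0.25 ± 0.07.

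Genes that carry neuronal activity into changes at the synapse and the cell surface were called in 9 of 28 cases. The median of the 28 was 0.80, and 26 were above 0 on both arrays, against 25.5% of all features on the array. Arc, which controls the trafficking of AMPA receptors, had ratios of 2.46 and 2.34, a mean of 2.40 ± 0.08 or 5.27-fold. Its log2 signal was 15.29 and 15.60 in ischemic core against 12.83 and 13.26 in healthy core. Gem, a small GTPase that inhibits calcium channels, had 1.70 ± 0.06, and the stress sensors Gadd45g and Gadd45b had 1.46 ± 0.16 and 1.24 ± 0.15.

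Secreted products were among them. Bdnf, a neurotrophin, had 1.23 and 1.25, a mean of 1.24 ± 0.01, and its ischemic log2 signals of 12.58 and 12.56 stood clear of 11.35 and 11.31 in healthy core. Inhba, a subunit of activin, had 1.07 ± 0.07 and Nptx2, a pentraxin that clusters AMPA receptors, 1.06 ± 0.25. Ptgs2, the inducible cyclooxygenase, had 1.12 ± 0.03, and Btg2 closed the group at 1.00 ± 0.16. Some classical activity genes stayed near 0: Homer1 had 0.11 ± 0.16 and Nrn1 0.15 ± 0.27.

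Feedback inhibitors of MAP kinases were called in 3 of 15 cases, against 0.228% of all features on the array, with a median of 0.59. Dusp6, a phosphatase specific for ERK, had 1.65 and 1.67, a mean of 1.66 ± 0.01. Dusp1, a nuclear phosphatase for p38 and JNK, had 1.29 and 0.96, a mean of 1.13 ± 0.23, and Dusp4 a mean of 1.09 ± 0.07. The call of Dusp1 ended without core replicate 1, where its ratio is the 0.96 of replicate 2. Sprouty proteins, which act upstream, had 0.61 ± 0.27 for Spry4 and -0.04 ± 0.28 for Spry2.

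Chemokines gave the next high ratios, with a median of 0.46 over 25 on the array, or -0.01 with spike-in scaling. Of the 25, 5 were called, against 0.228% of all features on the array. Ccl4, which attracts monocytes and lymphocytes, had ratios of 3.60 and 3.57, a mean of 3.59 ± 0.02 or 12.0-fold. Its log2 signal was 10.54 and 10.48 in ischemic core and 6.94 and 6.90 in healthy core. Ccl3, its close relative, had 2.84 and 2.83, a mean of 2.84 ± 0.01, from 10.13 and 10.06 in ischemic and 7.29 and 7.23 in healthy core. Both genes separated the tissues with almost no spread between arrays. Their healthy signals were dim enough that the ratios depend on the background treatment: processed signals gave 4.52 for Ccl4 and 3.49 for Ccl3.

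Ligands for neutrophils and monocytes followed. Cxcl1, a neutrophil attractant, had 1.64 and 1.70, a mean of 1.67 ± 0.04. The monocyte attractants Ccl2 and Ccl7 had means of 1.67 ± 0.21 and 1.66 ± 0.00. With processed signals Cxcl1 had 2.18, Ccl2 1.85 and Ccl7 2.41. Ccl9 had 0.90 ± 0.31 and Cxcl10, an interferon-induced ligand, 0.92 ± 0.27, both under the threshold. The neuronal chemokine Cx3cl1 had 0.06 ± 0.48 with opposite signs on the arrays, and Ccl17 was the lowest at -0.31 ± 0.08.

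The induced cytokines had low signals, and their ratios depend on how background is treated. Il1b, the secreted interleukin made by activated myeloid cells, was the called member among 18 on the array, at 1.03 and 1.01, a mean of 1.02 ± 0.01. With processed signals it had 1.84. Il6 had 0.81 ± 0.04, or 2.48 with processed signals. Il33, released from damaged nuclei, and Il18, the brightest members, had 0.07 ± 0.28 and -0.05 ± 0.03. The median over the 18 was 0.18, or -0.29 with spike-in scaling.

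Several inflammatory genes were well above background on both arrays in ischemic core and on neither array in healthy core. This held for 152 of the 24538 measured features, inflammatory or not, and 62 of them have a symbol. The reverse held for 27 features, 10 of them with a symbol. The bound on the fold, set on each array against the probe's own healthy signal or the lowest signal well above background, whichever is higher, was highest for the neutrophil attractant Cxcl2, at least 1.80-fold higher. Ccl11, an eosinophil attractant, was at least 1.51-fold higher, Tslp, an epithelial cytokine, at least 1.60-fold, and Tnf at least 1.34-fold. Only 5 of the 152 features had a bound over 1.5-fold, and in the reverse direction the highest bound was 1.23-fold. How far the offset of 50, which lifts both tissues, lowers these bounds was not tested.

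**Figure D3:**
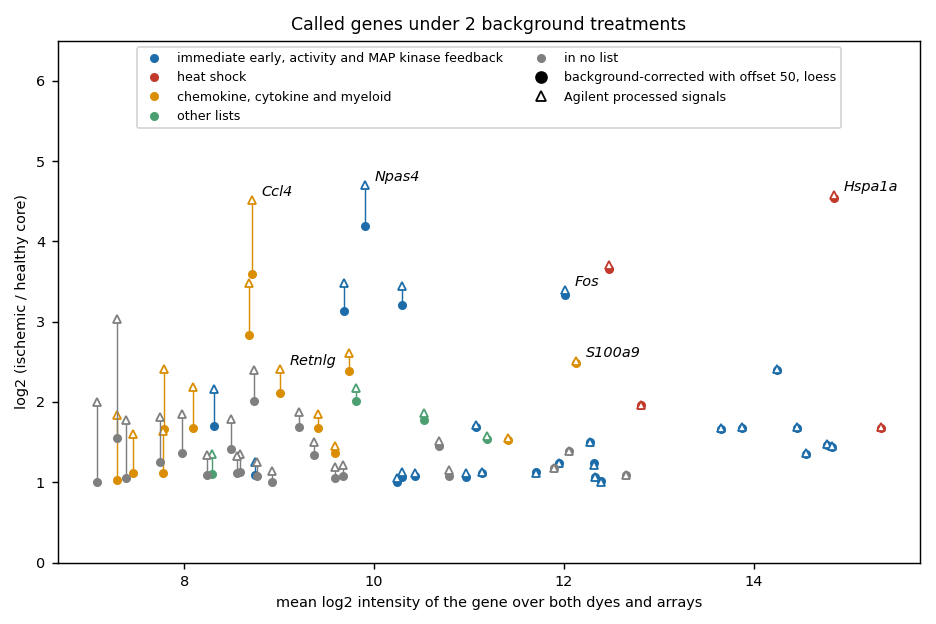
Log2 ratio of the called genes (y axis) against their mean log2 intensity (x axis), from offset background correction with loess (filled circles) and from Agilent's processed signals (open triangles), joined by a line for each gene. The median gap is 0.727 for called features of intensity 7 to 8 and 0.214 for 8 to 10, and it is close to 0 for brighter features.

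Lists of regulators of the inflammatory response had 0 or 1 called member, where 0.228% of all features on the array were called. At that share 0 called members does not set apart a list of this size. Nfkbiz, a nuclear cofactor that licenses secondary NF-kappaB targets, had 1.42 and 1.30, a mean of 1.36 ± 0.08, and was the called member among 16. Tnfaip3, the A20 ubiquitin editor that ends NF-kappaB signalling, had 0.75 ± 0.10, and Nfkbia, the first inhibitor in the loop, had -0.03 ± 0.30. Among the Socs and Stat3 list 0 of 12 were called; Socs3, an inhibitor of gp130 receptors, had 0.92 and 0.90, a mean of 0.91 ± 0.01, and Stat3 itself 0.18 ± 0.15. Interferon response genes also had 0 of 17 called, with Irf1 at 0.27 ± 0.02.

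The leading neutrophil transcripts were higher in ischemic core on both arrays. S100a9, a calcium-binding protein that neutrophils hold in large amounts, had ratios of 2.45 and 2.53, a mean of 2.49 ± 0.06 or 5.60-fold. Its log2 signal was 13.29 and 13.45 in ischemic core against 10.85 and 10.92 in healthy core. Its partner S100a8 had 2.39 on both arrays, and Retnlg, a resistin-like protein of neutrophils, had 2.06 and 2.15. Clec4d, a C-type lectin receptor, was the fourth called member of 15, at 1.11 ± 0.09.

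Over the whole neutrophil list 13 of 15 were above 0 on both arrays, against 25.5% of all features on the array. The median over the 15 was 0.33, or -0.14 with spike-in scaling. Over the 13 measured members it was 0.56, or 1.26 with offset 0 and 1.60 with processed signals. The summed background-corrected signal of the 13 measured members was 15006 and 15874 in ischemic core and 3861 and 3734 in healthy core. Most of this came from few genes: without S100a9, S100a8 and Retnlg the other 10 summed to 2159 and 1756 against 1556 and 1315. Not all members took part: Mpo, the granule myeloperoxidase, had 0.11 ± 0.15 and Lcn2, also made by astrocytes, 0.05 ± 0.26. Mmp8, the neutrophil collagenase, had 0.95 ± 0.07, or 2.50 with processed signals. Ngp and Ltf, both granule proteins, were well above background in ischemic core alone.

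Markers of monocytes and macrophages were mixed, with 2 of 14 called, against 0.228% of all features on the array. Cd14, the co-receptor for lipopolysaccharide, had 1.45 and 1.60, a mean of 1.53 ± 0.11, and Gpr84, a receptor for medium-chain fatty acids, had 1.03 and 1.21, a mean of 1.12 ± 0.13. Plac8 had 0.97 ± 0.11. The resident perivascular markers Cd163 and F13a1 had -0.11 ± 0.05 and -0.12 ± 0.00. Ccr2, the receptor for Ccl2 on blood monocytes, was above background in ischemic core alone, with a bound of 1.16-fold.

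Microglia markers had a median of 0.00 over 19, and 0 were called. Tmem119, a homeostatic microglial membrane protein, had -0.45 and -0.44, a mean of -0.44 ± 0.01, and Selplg, a selectin ligand, -0.43 ± 0.14. Aif1, the gene of Iba1, had 0.25 ± 0.04, below 0 with spike-in scaling. Summed signals of the list were 61082 and 62078 in ischemic and 58767 and 62435 in healthy core. Lymphocyte markers had sums of 661 and 646 against 607 and 636, with Cd3e, a subunit of the T cell receptor complex, at -0.07 ± 0.07.

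Blood left in the tissue would carry red cell and platelet RNA. The globin gene Hbb-bt had 0.05 and 0.12, a mean of 0.08 ± 0.05, and Hba-a1 had 0.10 ± 0.07. Platelet markers had a median of 0.16 over 6, or -0.31 with spike-in scaling, with Ppbp at 0.56 ± 0.00 and Pf4 at 0.54 ± 0.28. The part of blood in the neutrophil ratios was not tested.

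Genes called outside these groups included secreted and matrix proteins. Ccn1, a matricellular protein, had 1.71 and 1.84, a mean of 1.77 ± 0.09. Adamts1, a protease of proteoglycans, had 1.49 and 1.59, a mean of 1.54 ± 0.07. They were the 2 called of 24 matrix and proteolysis genes, against 0.228% of all features on the array. Related genes did not pass, with Thbs1 at 0.68 ± 0.07 (1.99 with processed signals), Timp1 at 0.41 ± 0.13 and the collagen gene Col4a1 at -0.01 ± 0.08. Tnfaip6, a hyaluronan-binding protein induced by inflammatory cytokines, had 1.45 ± 0.12.

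Nts, the precursor of neurotensin, was the called member of 19 neuropeptide and PACAP system genes. Its ratios were 1.95 and 2.07, a mean of 2.01 ± 0.08 or 4.02-fold, with log2 signals of 10.76 and 10.87 in ischemic and 8.81 and 8.80 in healthy core. Adcyap1, which encodes PACAP, had 0.82 and 0.55, a mean of 0.69 ± 0.19, under the threshold on the mean. The PACAP receptor gene Adcyap1r1 had -0.17 ± 0.04.

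A further 21 called genes were in no list. The highest was Crct1, known as a cysteine-rich protein of epithelia, with 1.98 and 2.05, a mean of 2.01 ± 0.05 or 4.03-fold. Gprc5c, an orphan receptor, had 1.69 ± 0.02, Mlf1, a myeloid leukemia factor, 1.41 ± 0.15, and Gjb2, the connexin 26 gene, 1.40 ± 0.15. Rgs16, which turns off G protein signals, had 0.95 and 1.40, a mean of 1.17 ± 0.31.

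Several of these are genes of myeloid cells or the acute phase. Hp, the haemoglobin scavenger haptoglobin, had 1.25 ± 0.07, Ccrl2, a chemerin-binding receptor, 1.13 ± 0.15, Gpr183, a receptor for oxysterols, 1.12 ± 0.01, Ifitm6 1.09 ± 0.09 and Slpi, an inhibitor of neutrophil elastase, 1.05 ± 0.10. Others were the Wnt modulator Sfrp2 at 1.34 ± 0.07, the potassium channel subunit Kcne4 at 1.36 ± 0.11, the death receptor Tnfrsf25 at 1.08 ± 0.03 and the tubulin Tubb6 at 1.08 ± 0.02.

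For some called genes a second probe did not meet the rule. This held for Phlda2, an imprinted growth regulator, at 0.66 and 1.55, for Gjb2 at 0.63 and 1.40, for Mycn at 0.27 and 1.06, and for Ier2, Phf13, Rnd3 and Fzd10. The brightest probe stands for each of these genes. The other 12 of the 19 called genes with several probes met the rule on every probe. Bcl2a1b, an anti-apoptotic Bcl2 relative at 1.11 ± 0.05, belongs to a family of near-identical copies, so its value is uncertain.

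**Figure D4:**
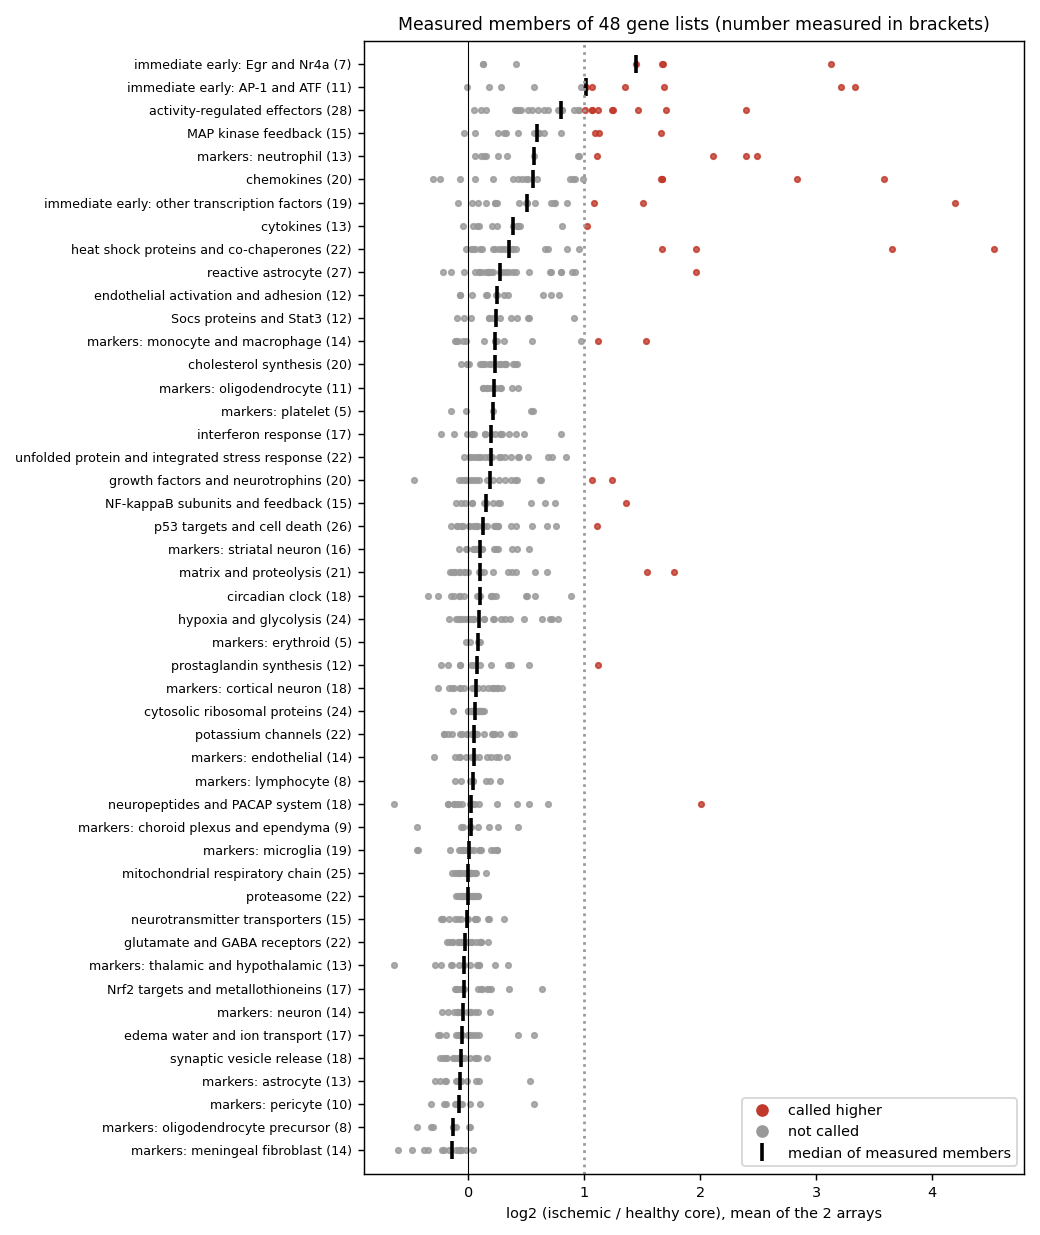
Mean log2 ratio (x axis) of the measured members of 48 gene lists (y axis), with called members in red and list medians as black ticks. The Egr and Nr4a list has the highest median at 1.44, followed by AP-1 and ATF at 1.02, and meningeal fibroblast markers have the lowest at -0.14.

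Stress pathways other than heat shock had 0 or 1 called member, where 0.228% of all features on the array were called. At that share 0 called members does not set these lists apart. In the unfolded protein and integrated stress response 0 of 22 were called. Above 0 on both arrays were 17, against 25.5% of all features on the array, and the median of 0.19 became -0.28 with spike-in scaling. Chac1, a glutathione-degrading target of Atf4, had 0.84 ± 0.28 and Hspa5, the chaperone BiP, 0.51 ± 0.14. Among 25 hypoxia and glycolysis genes 0 were called and the median was 0.05. Adm, the vasodilator adrenomedullin, had 0.77 ± 0.15 and P4ha1, a collagen prolyl hydroxylase, 0.72 ± 0.04, while Vegfa had 0.21 ± 0.18 and Slc2a1, the glucose transporter of vessels and glia, -0.05 ± 0.51. Bright glycolytic enzymes had large array spreads, with Aldoa at 0.79 and -0.69. Nrf2 targets had 0 of 17 called, led by the haem oxygenase Hmox1 at 0.63 ± 0.06.

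Lists of cell death, glial reaction and vessel activation also had 1 or 0 called members at 6 h, beside the same 0.228% of all features on the array. Of 26 p53 targets and cell death genes 1 was called, Bcl2a1b; Gadd45a had 0.68 ± 0.02 and Cdkn1a, the p21 inhibitor, 0.37 ± 0.06. Reactive astrocyte genes had 1 of 27 called, Hspb1, and Gfap, the defining filament, had 0.09 ± 0.22 on a probe of mean log2 intensity 7.98. Vessel activation had 0 of 13, with Thbd, an anticoagulant receptor, at 0.78 ± 0.10 and the adhesion genes Icam1 at 0.31 ± 0.01 and Vcam1 at -0.07 ± 0.05. Cholesterol synthesis had 0 of 20 called. Above 0 on both arrays were 15, such as Hmgcs1 at 0.32 ± 0.10, against 25.5% of all features on the array. But the median of 0.22 became -0.25 with spike-in scaling.

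The labelled tissue was checked against markers of the brain regions it could hold. All 14 general neuron, 18 cortical and 16 striatal markers on the array were measured. Snap25, a vesicle fusion protein, had log2 signals of 17.16 and 16.57 in ischemic and 16.58 and 17.13 in healthy core. General neuron markers had 0 of 14 called and a median of -0.05, with Stmn2 the lowest at -0.23 ± 0.05 and Rbfox3, the NeuN gene, at -0.09 ± 0.47. Striatal markers had 9 of 16 above 0 on both arrays, against 25.5% of all features on the array, and 0 below. Among the 9 were Tac1 at 0.52 ± 0.04 and Drd1 at 0.38 ± 0.01, which fall to about or below 0 with spike-in scaling. Synaptic release genes had 0 of 18 called and glutamate and GABA receptors 0 of 22.

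Housekeeping systems lay near 0 relative to the median of all features. Ribosomal protein genes had a median of 0.06 over 24, respiratory chain subunits -0.01 over 25 and proteasome subunits -0.01 over 22, with 0 called in each. For 22 of the 25 respiratory chain genes the mean was smaller than its own SD. With spike-in scaling these medians were -0.41, -0.48 and -0.48.

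Glial and support cell markers differed in side. Oligodendrocyte genes had 7 of 11 above 0 on both arrays, against 25.5% of all features on the array, and 0 below. Opalin had 0.37 ± 0.05, but the list median of 0.22 became -0.26 with spike-in scaling. Precursor genes had 0 of 8 above and 5 below on both arrays, a side taken by 26.8% of all features on the array. Pdgfra, the precursor receptor, had -0.33 and -0.55, a mean of -0.44 ± 0.16, and Gpr17 -0.31 ± 0.11. Astrocyte genes had 6 of 13 below 0 on both, led by Fgfr3 at -0.29 ± 0.06, against Sox9 at 0.53 ± 0.13.

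Meningeal fibroblast markers were below 0 on both arrays in 11 of 14 cases, against 26.8% of all features on the array. Their median was -0.14. Col3a1, a fibrillar collagen, had -0.55 and -0.67, a mean of -0.61 ± 0.09, Col1a1 a mean of -0.49 ± 0.09 and Col1a2 -0.38 ± 0.13. Their summed signals were 29624 and 30019 in ischemic and 32741 and 32426 in healthy core. Choroid plexus markers had sums of 1830 and 1894 against 1767 and 1831, and Ttr, the defining one, had 0.01 ± 0.00 at a mean log2 intensity of 6.34, near the floor of the scale. The share of meninges or plexus in each dissected piece was not tested.

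No gene was called lower, so the lowest ratios are given as values. Mrgprf, an orphan receptor, had -0.76 and -0.96, a mean of -0.86 ± 0.14 and the lowest of all genes well above background in both tissues. Spink8, a protease inhibitor, had -0.64 and -0.85, and the desmosomal Pkp2 -0.60 and -0.81. Fkbp5, a chaperone induced by glucocorticoids, had -0.71 and -0.62, and Lrg1, a secreted glycoprotein of vessels, -0.61 and -0.73. Next came Sult1a1 at -0.66 ± 0.12, Alox12b at -0.65 ± 0.33, Cdhr1 at -0.64 ± 0.04 and the vasopressin gene Avp at -0.64 ± 0.04. These 9 genes would meet the rule for lower genes with spike-in scaling, and Mrgprf also with processed signals, at -1.09, and with offset 0, at -1.02.

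The core ratios were set against those of the penumbra, where 60 of 24930 features were called higher (0.241%). Of the 76 features called in the core, 73 had a penumbra mean above 0 and 57 had a penumbra mean below the core mean. In 42 of them both core arrays lay above both penumbra arrays, and in 9 below. Because the 76 were chosen for high core ratios, these counts lean toward the core and do not compare the strength of the responses. By the rule of a difference of at least 1 log2 unit with both core arrays on one side of both penumbra arrays, 10 of 25253 features were higher in the core (0.0396%) and 5 lower (0.0198%). This balance turned without core replicate 1, to 12 higher and 23 lower, and without penumbra replicate 4, to 13 and 17. Without core replicate 2 the counts were 17 and 8, without penumbra replicate 3 they were 13 and 11, and processed signals gave 94 and 86. All 10 higher features have a symbol and 7 are chemokines. The others are Hspb1, Cd14 and Gpr84. Fos at 3.02, Npas4 at 3.71, Egr2 at 2.99 and Hspa1a at 4.18 in the penumbra differed from the core by less than that.

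**Figure D5:**
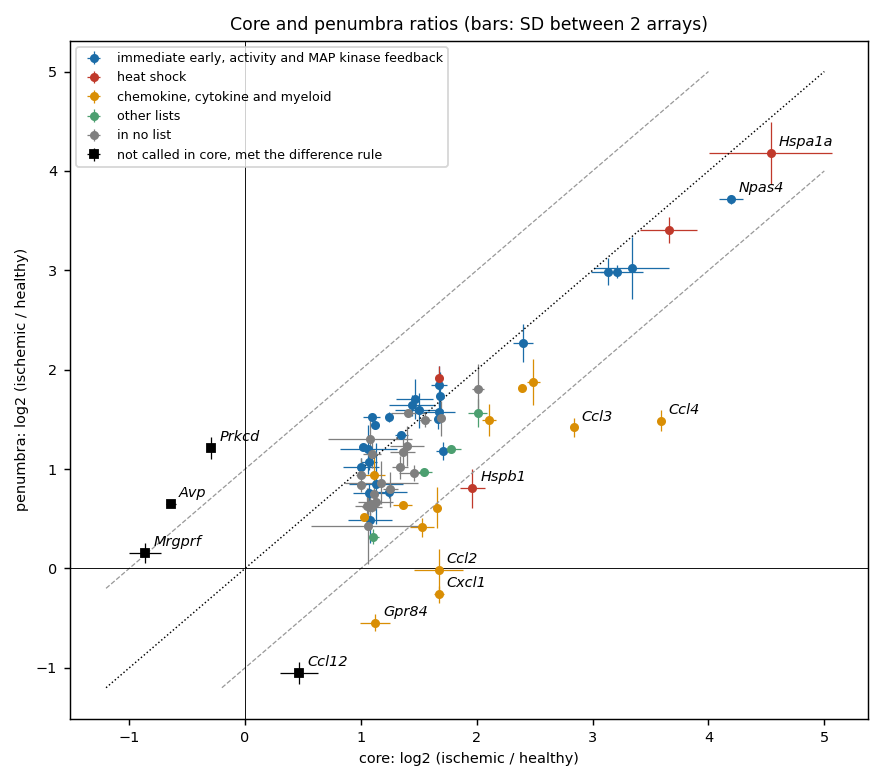
Mean log2 ratio in the core (x axis) and in the penumbra (y axis) for the called genes and for Ccl12, Prkcd, Avp and Mrgprf, with bars for the SD between 2 arrays; the dotted line marks equal ratios and dashed lines a difference of 1 log2 unit. Ccl4, Cxcl1, Ccl2, Gpr84 and Ccl12 lie beyond the line on the core side, Prkcd and Avp on the other.

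For the chemokines the regions differed mainly in their healthy tissue. Ccl4 had a penumbra mean of 1.49, 2.10 below the core. Its ischemic log2 signals were close, at 10.54 and 10.48 in the core and 10.32 and 10.08 in the penumbra, while healthy tissue had 6.94 and 6.90 in the core but 8.76 and 8.67 in the penumbra. Signals here are compared between arrays of the same dye layout, with replicate 1 against 3 and 2 against 4.

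The same layout held for the other leading chemokines. Cxcl1 differed by 1.93, with ischemic signals of 8.91 and 8.95 against 8.43 and 8.57, and healthy signals of 7.27 and 7.24 against 8.63 and 8.89. Ccl2 differed by 1.69, with healthy signals of 8.51 and 8.63 against 9.87 and 10.08. Ccl3 differed by 1.42, with healthy signals of 7.29 and 7.23 against 8.62 and 8.64. For each of them the healthy tissues of the 2 regions stood further apart than the ischemic tissues.

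Gpr84 and Ccl12 followed it as well. Gpr84 differed by 1.67, with ischemic signals of 8.30 and 8.37 against 8.28 and 8.19 and healthy signals of 7.28 and 7.16 against 8.76 and 8.79. Ccl12, a mouse monocyte attractant, had 0.58 and 0.35 in the core and -0.97 and -1.13 in the penumbra, with healthy signals of 7.82 and 8.10 against 9.57 and 9.65. Hspb1 was different: it differed by 1.16, with ischemic signals of 13.79 and 13.80 against 12.83 and 12.75 and healthy signals of 11.75 and 11.91 against 11.89 and 12.08. For Hspb1 the regions thus stood apart in ischemic tissue.

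Lower in the core were 5 features, 3 of them with a symbol. Prkcd, a protein kinase C abundant in thalamus, had -0.29 on both core arrays and 1.29 and 1.13 in the penumbra, a difference of -1.50; its ischemic signals were 9.91 and 10.10 against 11.70 and 11.65. Avp, a hypothalamic peptide, differed by -1.29, with ischemic signals of 7.80 and 7.73 against 8.63 and 8.66, and Mrgprf by -1.02. Markers of other tissue also separated the 2 dissections: the choroid plexus gene Clic6 had healthy signals of 9.15 and 9.27 in the core and 12.45 and 12.68 in the penumbra. The part of the dissection in these differences was not tested.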

How the data were processed

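RNA of the core was measured on 2 of the 4 arrays, all on 1 slide. Each deposited scanner file gives the intensity of a spot in Cy3 and Cy5; the software was Agilent Feature Extraction 11.0.1.1, as the submitters' processing notes state. The authors' deposited table of log10 ratios equalled the log10 of processed Cy5 over processed Cy3 signal to within 5e-06. From the median signals, limma 3.58.1 in R 4.3.3 removed local background (normexp, offset 50) and then fitted loess on each array, giving control and outlier spots weight 0. Single-channel signals came from Aquantile normalization after loess and include the offset. Spots of a probe were averaged; a probe was measured if 1 tissue or both stood well above background on both arrays, and the brightest probe stood for its gene. Scanner files gave accessions; 23374 of 41174 probes were named through RefSeq accessions (GRCm38.p6), giving 33269 features.

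The rule for named genes took every called gene, the 10 lowest, up to 6 each way in the difference between regions, the 2 brightest members of lists with fewer than 2 called members, and Adcyap1; other list members were chosen as examples after their values were seen, and some genes that the rule names are not reported here. The members and lists were chosen with earlier results of these data known. The scripts were tested on simulated data. Alternatives were processed signals, offset 0, median centring, other filters, the mean over probes, spike-in scaling, limma over arrays, a 1.5-fold rule and leaving out each array. Plots were drawn with matplotlib 3.10.9.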

Additional observations from a re-analysis of the deposited data

Results flagged for a closer look

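Among the named genes, some had ratios of opposite sign in the 2 regions, on both arrays of each. Several of them were named because of their difference between the regions, and the share over all features was not counted. None of these differences was tested, because each region counts as 1 replicate. Higher in the core were Cxcl1, with a core minus penumbra difference of 1.93 log2, Gpr84 with 1.67 and Ccl12 with 1.52. Lower in the core were Prkcd with -1.50, Avp with -1.29, Mrgprf with -1.02 and Cdhr1, a cadherin of photoreceptors and olfactory bulb, with -0.86.

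Smaller differences of the same kind were those of the meningeal growth factor gene Igf2 at -0.55, the oligodendrocyte precursor receptor Gpr17 at -0.49, the globin Hbb-bt at 0.31 and the annexin partner S100a10 at -0.094. Of these, S100a10 had a core ratio of -0.04 ± 0.01 and a penumbra ratio of 0.05 ± 0.01. Both are smaller than the median SD of 0.064 between repeat spots on a core array.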

How the results depend on the processing

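Counts of higher and lower features moved with the background treatment and the scaling. The scanner software's processed signals called 230 higher and 15 lower, offset 0 gave 149 and 1, spike-in scaling 31 and 29, and the 1.5-fold rule 212 and 13, against 76 and 0. Leaving out 1 core array gave 83 to 93 higher and 0 to 12 lower. Spike-in scaling shifts every core ratio by 0.47, and the 1.5-fold rule is looser by its definition. With 1 core array left out, only 1 ratio has to pass and dye bias no longer cancels. Beyond this the cause of the changes was not tested. Median centring (73 and 0), the mean over probes (71 and 0) and both other filters (76 and 0 each) stayed close. The filter on both tissues could not lower the count, because all 76 were well above background in both. The limma fit over arrays takes the pair as replicates, although it counts as 1 here, so its counts are left out. Of the 67 called genes, 30 kept their call with spike-in scaling and 55 under the 7 other alternatives run for each gene; 0 changed sign. Calls ended without core replicate 1 were Dusp1, Maff, Mycn, Nptx2 and Rnd3, and without core replicate 2 Btg2, Dennd2c, Fzd10, Ier2, Rgs16 and Slpi. Spike-in scaling ended 37 calls, among them Jun, Junb, Nr4a1, Bdnf, Il1b, Nfkbiz, Ptgs2, Gadd45b, Gadd45g, Dusp1 and Dusp4. List medians above 0 numbered 35 of 48, and 7 with spike-in scaling. Features that met the difference rule between regions numbered 15, 180 with processed signals and 57 with offset 0; without 1 core array they numbered 25 to 35, and without 1 penumbra array 24 to 30. Mrgprf lost this call without core replicate 2 or penumbra replicate 3, and Ccl7 without penumbra replicate 4 or with the mean over probes. No paired analysis was possible because core arrays are numbered 1 and 2 and penumbra arrays 3 and 4. Signal over background limits dim genes, whose ratios the offset shrinks.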
